A study of Mus musculus with 9 samples.

Results

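The mammalian mitochondrial ribosome is built from proteins encoded in the nucleus and rRNAs encoded in mitochondrial DNA, and the genes for its proteins are named Mrpl (large subunit) and Mrps (small subunit). The genes described here are the protein-coding mouse genes whose GRCm38 symbol begins with Mrpl or Mrps followed by a digit. There are 78 of them, 49 Mrpl and 29 Mrps, among 55416 gene identifiers in the table. All 78 passed the filter on low counts and were among the 13944 genes tested. They were chosen by name alone, with no use of their measured values. Pseudogenes of the family were left out.

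RNA was sequenced from snap-frozen left gastrocnemius, the large calf muscle, of mice in 3 groups with 3 libraries each. The AET_MET group (aerobic exercise training with metformin) ran on a motorized treadmill 5 days a week, 60 min a day, for 8 weeks, and drank water holding metformin at 2 mg/mL. The AET group had the same training without the drug. The SED group was sedentary and received neither. Metformin is an oral glucose-lowering drug. The sources used here do not give strain, sex, age, feeding state or the time from the last run to collection. A group with metformin and no training was not analysed here. The design text names more mice per group than the 3 libraries analysed, and nothing says that each library is a separate animal, so the p-values reflect variation among these libraries, which may be technical.

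Mitochondrial ribosomes, or mitoribosomes, make only the membrane subunits of the respiratory chain and ATP synthase that mitochondrial DNA encodes. All other respiratory chain subunits come from nuclear genes through cytosolic ribosomes, so the oxidative capacity of a muscle fiber depends on both sets of ribosomes. The mitoribosome descends from a bacterial ribosome: some of its proteins have bacterial homologues and others are found only in mitochondria. In the large subunit, peptide bonds are formed and the new chain leaves through an exit tunnel at the inner membrane; in the small subunit, the mRNA is decoded.

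By structure, 29 of the genes encode large-subunit proteins with bacterial homologues and 22 encode mitochondria-specific large-subunit proteins. A further 16 encode small-subunit proteins with bacterial homologues and 10 encode mitochondria-specific small-subunit proteins. The symbols depart from the structure in 3 cases. Mrps18a and Mrps30 are named for the small subunit, but their products sit in the large one. Mrps36 carries the name, but its product is a component of the 2-oxoglutarate dehydrogenase complex of the citric acid cycle. The genes lie on 17 chromosomes, with the most, 11, on chromosome 11.

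Libraries held 15434424 to 25355877 expected counts, and the 78 genes took 0.138% to 0.170% of them. The submitters' library names go with the groups, so a batch behind those names and the group cannot be told apart. Fast-fiber markers were abundant in every library, at a summed 144095 to 166338 CPM over 10 genes, as the tissue label implies. Levels are CPM, which set each count against the size of its library, here adjusted by the trimmed mean of M-values (TMM) so that the bulk of genes align between libraries. Fewer cells of a type and less RNA per cell cannot be told apart in such bulk samples. Each comparison was tested with edgeR's quasi-likelihood test over all 13944 genes, with Benjamini-Hochberg adjustment, and genes with an adjusted p under 0.05 were called. The 3 comparisons share libraries and are not independent of each other.

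Promoter sequence is shown for 4 members whose mRNA differed in at least 1 comparison, because promoters of nuclear genes for mitochondrial proteins are known for binding sites of the factors NRF1, GABP (an ETS factor) and YY1. RefSeq (GRCm38.p6) listed a promoter, 250 bases before to 50 bases after the transcription start, for 69 of the 78 genes. Capitals mark the motif match, 1 in each of these promoters and therefore with no overlap between motifs, and each run reads 5′ to 3′ on the gene's own strand. The NRF1 motif searched was GCGCA, any base, then GCGC; the ETS motif was CCGGAAG and the YY1 motif was AAGATGGCG, on both strands. The order is Mrpl12 (chr11:120484387-120484686, plus strand), Mrpl44 (chr1:79775768-79776067, plus strand), Mrpl27 (chr11:94653541-94653840, plus strand) and Mrpl42 (chr10:95501900-95502199, minus strand).
Mrpl12, NRF1 motif read on the opposite strand: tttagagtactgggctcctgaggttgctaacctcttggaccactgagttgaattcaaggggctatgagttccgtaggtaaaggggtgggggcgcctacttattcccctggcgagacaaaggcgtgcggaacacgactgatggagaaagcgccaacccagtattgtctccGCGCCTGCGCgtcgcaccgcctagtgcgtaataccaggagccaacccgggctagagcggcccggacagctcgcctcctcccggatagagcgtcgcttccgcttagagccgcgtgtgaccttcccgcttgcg
Mrpl44, NRF1 motif: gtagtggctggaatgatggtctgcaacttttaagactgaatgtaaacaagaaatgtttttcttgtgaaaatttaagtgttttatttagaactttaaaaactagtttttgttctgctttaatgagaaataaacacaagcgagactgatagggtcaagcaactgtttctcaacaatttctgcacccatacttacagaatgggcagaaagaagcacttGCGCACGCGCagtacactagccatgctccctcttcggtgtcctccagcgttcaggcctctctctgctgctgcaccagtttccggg
Mrpl27, ETS motif: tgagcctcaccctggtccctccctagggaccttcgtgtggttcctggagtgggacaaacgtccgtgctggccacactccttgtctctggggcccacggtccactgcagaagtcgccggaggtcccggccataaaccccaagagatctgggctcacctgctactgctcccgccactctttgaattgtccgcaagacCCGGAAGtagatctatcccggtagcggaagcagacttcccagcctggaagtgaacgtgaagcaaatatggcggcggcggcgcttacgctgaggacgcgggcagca
Mrpl42, YY1 motif: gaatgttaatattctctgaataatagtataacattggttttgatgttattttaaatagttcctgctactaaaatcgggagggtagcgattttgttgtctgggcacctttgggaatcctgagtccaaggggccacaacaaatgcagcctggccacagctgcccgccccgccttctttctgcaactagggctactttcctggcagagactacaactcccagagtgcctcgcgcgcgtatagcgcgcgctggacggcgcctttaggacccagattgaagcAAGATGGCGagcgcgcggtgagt

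The first base of the match lay at -81 in Mrpl12, -35 in Mrpl44 and -55 in Mrpl27, counted from the transcription start, and at 28 after the start in Mrpl42. Neither of the other called members, Mrpl16 and Mrpl50, held any of the 3 motifs in its window. The ETS motif was present in 24 of the 69 promoters (34.8%), against 9.12% of 27025 mouse promoters and 18.1% of the 10134 promoters of tested genes. The NRF1 motif was present in 13 (18.8%), against 4.78% of all promoters and 10.4% of those of tested genes. The YY1 motif was present in 8 (11.6%), against 1.49% and 3.27%. At least 1 of the 3 was found in 39 of 69 promoters. Median GC content was 58.3% in the members' promoters, 52.7% in all promoters and 61.0% in those of tested genes. A match describes letters in a window, not a bound site.

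The members were expressed at moderate and uneven levels. Over all 9 libraries, the level per kilobase of exon had a median of 7.70 CPM per kb, against 1.90 CPM per kb over 13881 tested genes with a known length. The highest large-subunit levels per kb were those of Mrpl18 (30.6 CPM per kb), Mrpl54 (30.4) and Mrpl2 (28.7), and the lowest were those of Mrpl47 (2.18) and Mrpl13 (2.32). Mrpl18 overlaps Tcp1 on the other strand, which averaged 130 CPM, so its level is uncertain without a stated strand setting. The same limit applies to Mrpl47, which overlaps Ndufb5 (139 CPM) and Actl6a (9.63 CPM) on the other strand. Mrpl2 belongs to the conserved core around the peptidyl transferase centre, Mrpl18 to the central protuberance, and Mrpl47 to the rim of the exit tunnel. In the small subunit, Mrps21 stood highest at 54.1 CPM per kb, followed by Mrps28 (24.7) and Mrps23 (20.9), and Mrps35 (1.20) and Mrps10 (1.32) stood lowest. Length here is the union of all annotated exons, which lowers the per-kb level of genes with long alternative exons: it is 739 bases for Mrps21 and 8631 for Mrps35. By CPM without length, Mrpl42 was highest at 104 CPM, or 6.50% of the family's total, and Mrps6 lowest at 3.84 CPM.

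Summed over each subunit, the mRNA averaged lowest in the trained mice given metformin. The 49 Mrpl genes summed to 1019, 1029 and 1019 CPM in AET_MET libraries, 1019, 1123 and 1201 CPM in AET libraries, and 1129, 1133 and 1160 CPM in SED libraries. The 29 Mrps genes summed to 488, 486 and 494 CPM in AET_MET, 459, 518 and 539 CPM in AET, and 524, 531 and 548 CPM in SED. For both subunits every AET_MET library lay below every SED library, while the AET libraries lay on both sides of this gap.

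**Figure D1:**
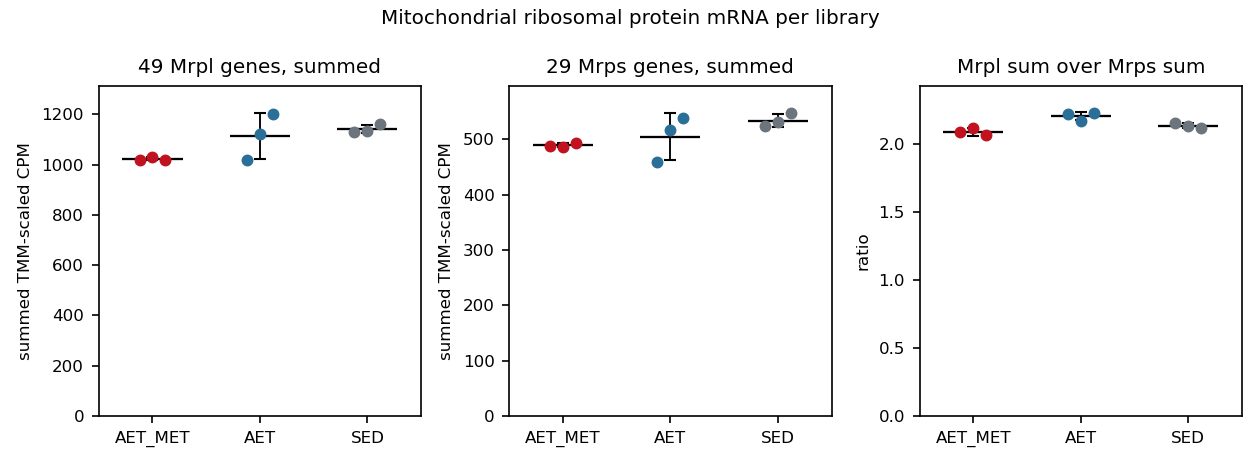
Summed TMM-scaled CPM of the 49 Mrpl genes (left) and the 29 Mrps genes (middle), and their ratio (right), in each library; groups run along the x axis. Points are libraries, the horizontal line is the group mean and the bar its SD (n = 3); AET_MET libraries sit at 1019 to 1029 CPM (Mrpl), below the SED libraries at 1129 to 1160, and AET libraries spread from 1019 to 1201.

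The Mrpl sum averaged 1022.5 ± 6.05 CPM in AET_MET, 1114 ± 91.6 CPM in AET and 1141 ± 16.5 CPM in SED (SD, n = 3 each). The Mrps sum averaged 489.6 ± 3.96 CPM in AET_MET, 505 ± 41.7 CPM in AET and 534 ± 12.5 CPM in SED. The ratio of the Mrpl to the Mrps sum was 2.09 ± 0.0267 in AET_MET, 2.21 ± 0.0315 in AET and 2.14 ± 0.0205 in SED. All 3 AET libraries had a higher ratio (2.17 to 2.23) than any AET_MET library (2.06 to 2.12) or SED library (2.12 to 2.16). With genes placed by structure, AET and SED nearly met: the lowest AET ratio was 2.594 and the highest SED ratio 2.591. Mrpl42 averaged 118.83 CPM in AET and 101.96 CPM in SED, and Mrpl12 averaged 36.45 and 25.98 CPM. By contrast, 34 of the 49 Mrpl genes had a lower estimate in AET than in SED. The part of Mrpl42 and Mrpl12 in the ratio was not tested. The separation of the sums depends on the TMM scaling: as a plain share of all counts, the family took 0.158%, 0.161% and 0.155% in AET_MET libraries and 0.160%, 0.168% and 0.161% in SED libraries, and the groups overlapped. No test was run on these sums.

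The AET libraries were the most spread, with replicate 1 at the low end and replicate 3 at the high end. The 78 genes summed to 1477 CPM in AET replicate 1 and 1741 CPM in AET replicate 3. AET replicate 1 held the lowest value of all 9 libraries for 39 of the 78 genes, and the lowest of the AET libraries for 61. AET replicate 3 held the highest of all 9 for 26 genes, and the highest of the AET libraries for 56. The median gene stood at -0.21 on the log2 scale relative to the SED mean in AET replicate 1, and at -0.04 and -0.02 in AET replicates 2 and 3. AET replicate 1 also had the largest share of counts from the mitochondrial genome, 15.6%, against 11.2% to 14.2% in the others. The part of that share in the low values was not tested. The median coefficient of variation of a member was 5.39% in AET_MET, 10.4% in AET and 5.40% in SED.

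**Figure D2:**
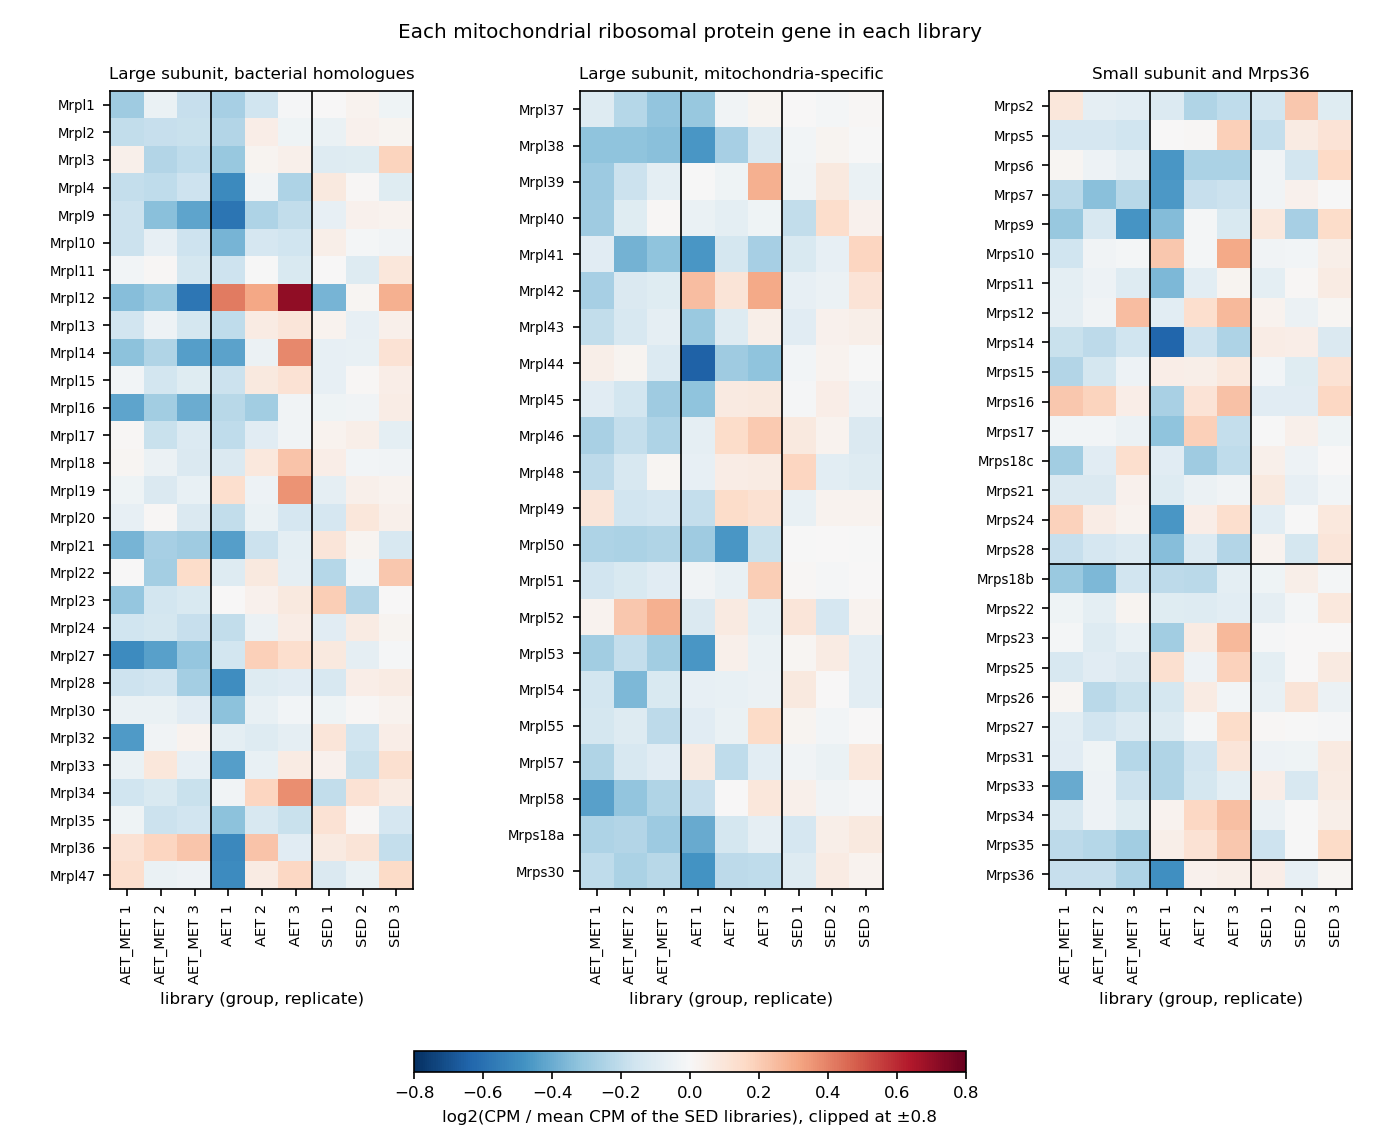
Each gene (rows) in each library (columns), as the log2 ratio of its CPM to the mean of the 3 SED libraries, clipped at ±0.8; panels hold large-subunit bacterial homologues, large-subunit mitochondria-specific proteins, and the small subunit with Mrps36 in the last row. AET_MET columns are mostly pale blue, AET replicate 1 holds the lowest value of 39 of the 78 rows, and Mrpl12 is the row with the strongest contrast between AET and AET_MET.

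The first comparison asks how training alone changed the muscle. Training left the level of nearly all mitochondrial ribosomal protein mRNAs within a narrow band, and the only members called were a pair of mitochondria-specific large-subunit genes, Mrpl44 and Mrpl50, both lower in trained mice. With 2 of 78 called (2.56%), the family stood below the 12.3% called among all genes tested, of which 6.45% were lower and 5.82% higher. No member was called higher by edgeR, and DESeq2 called 1, Mrpl12. At an unadjusted p under 0.05, 2 of 78 members were higher and 12 lower. Of all 13944 genes tested, 1992 were higher and 1976 lower at that threshold (28.5% in either direction). The median change was -0.07 on the log2 scale, against 0.01 over all genes, and 53 of 78 estimates were lower in AET (67.9%, against 48.6% of all genes). The 95% interval lay within ±0.5 on the log2 scale for 72 of the 78 members and within ±1 for all 78. No estimate passed ±0.5, against 18.4% of all genes. That share was also low for nuclear-encoded complex I subunits (2.78%) and cytosolic ribosomal proteins (1.28%), so it is not particular to the family. The median SE was 0.103 for members and 0.144 over all genes. Over all genes, 812 were called higher and 900 lower. That split was 980 and 711 with upper-quartile scaling, and 789 and 627 with library sizes alone.

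Mrpl44 encodes a large-subunit protein with a ribonuclease III-like fold, and human variants in it cause a cardiomyopathy. It lies at chr1:79776018-79781445 on the plus strand. Its level was 8.69, 11.1 and 10.9 CPM in AET libraries, against 13.4, 13.8 and 13.5 CPM in SED libraries. Every AET library lay below every SED library, and AET replicate 1 was the lowest. The log2 fold change was -0.41 ± 0.11 (SE), with an adjusted p of 0.0263 by edgeR. In AET_MET libraries it was 14.0, 13.8 and 12.6 CPM, around the SED level. Its promoter is the one above with the NRF1 motif on the forward strand. Mrpl44 overlaps Wdfy1 on the other strand, which averaged 7.83 CPM in AET and 5.85 CPM in SED and was not called, and reads of the pair cannot be told apart without a stated strand setting.

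Mrpl50 encodes a mitochondria-specific protein of the large subunit and lies at chr4:49512596-49521093 on the minus strand. Its level was 26.4, 23.3 and 28.5 CPM in AET, against 32.1, 32.3 and 32.1 CPM in SED. The SED libraries were almost identical, and all AET libraries lay below them. This was a log2 fold change of -0.31 ± 0.08 (edgeR adjusted p 0.0286). AET_MET libraries, at 27.1, 27.0 and 27.2 CPM, were also below every SED library, but that difference was not called (log2 -0.25 ± 0.08, edgeR adjusted p 0.108).

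Neither call was robust to the loss of a library. Both were lost without any 1 of the SED libraries and without AET replicate 1. Mrpl44 was also lost without AET replicate 3 and with library sizes alone, and Mrpl50 without AET replicate 2 and when the 2 groups were fitted by themselves. The largest adjusted p among these fits, by edgeR, was 0.0791 for Mrpl44 and 0.0920 for Mrpl50.

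Mrpl12 encodes the flexible stalk protein that recruits translation factors to the ribosome, and its product also binds the mitochondrial RNA polymerase. Its level was 34.6, 32.2 and 42.5 CPM in AET, against 20.1, 26.2 and 31.6 CPM in SED. It was the only member for which every AET library lay above every SED library, and its SED libraries were the most variable of the family, with a coefficient of variation of 22.2%. The log2 fold change was 0.49 ± 0.16 and missed the threshold (edgeR adjusted p 0.0760). It passed under DESeq2, with upper-quartile scaling, with a filter of at least 5 CPM in 3 libraries, and without SED replicate 3. Across those 4 fits, by edgeR or DESeq2, the adjusted p was 0.0281 to 0.0491.

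Among other large-subunit genes, Mrpl42 had the next highest estimate and was called only with the 5 CPM filter (log2 0.22 ± 0.08, edgeR adjusted p 0.0972). Mrpl9, a bacterial-type protein, had 22.1, 28.1 and 29.1 CPM in AET, against 31.8, 34.1 and 34.0 CPM in SED, without overlap. Its estimate of -0.33 ± 0.10 was not called either (edgeR adjusted p 0.0545), although DESeq2 and the fit with no filter called it. Mrps30, whose product sits in the central protuberance of the large subunit, had 15.2, 18.3 and 18.4 CPM in AET, against 19.7, 22.2 and 21.6 CPM in SED (log2 -0.29 ± 0.09, edgeR adjusted p 0.0591).

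Among the Mrps genes none was called by edgeR; 4 were lower at an unadjusted p under 0.05, and DESeq2 called 1, Mrps7. The lowest estimates were those of Mrps14 and Mrps6, both bacterial-type proteins. Mrps14 had 12.6, 17.5 and 16.5 CPM in AET, against 20.5, 20.3 and 18.1 CPM in SED (log2 -0.33 ± 0.11, edgeR adjusted p 0.0729), and it was called when no filter was applied. Mrps6 had 3.01, 3.47 and 3.49 CPM in AET, against 4.06, 3.74 and 4.64 CPM in SED (log2 -0.32 ± 0.15, edgeR adjusted p 0.180). Neither pair of groups overlapped, and both genes were lowest in AET replicate 1. The highest estimates were those of Mrps10 (log2 0.17 ± 0.10) and Mrps34 (0.15 ± 0.09), with edgeR adjusted p of 0.294 and 0.270. Mrps34 is a mitochondria-specific protein that binds the small-subunit rRNA. Its gene overlaps Mapk8ip3 on the other strand, at 13.0 CPM in AET and 10.3 CPM in SED. Over the family, the groups did not overlap for 13 genes lower in AET (16.7%) and 1 higher (1.28%), against 16.3% and 16.4% of all genes.

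The family's small shift in AET rested on AET replicate 1: without it the median change was -0.0022 and 39 of 78 estimates were lower, while without AET replicate 3 the median was -0.11. In the AET group the Schwann cell marker list stood higher, at a summed 99.4 to 162 CPM, against 55.5 to 62.4 CPM in SED. All 6 of its genes had higher estimates, 2 of them called. Smooth muscle and pericyte markers summed to 599.7 to 702 CPM in AET, against 506 to 595 CPM in SED, with 4 of 6 genes higher in estimate and Acta2 and Cspg4 called higher. Fibroblast and tendon markers summed to 729 to 863 CPM in AET, against 1008 to 1214 CPM in SED, with 6 of 7 lower in estimate and Dcn called lower. Endothelial markers summed to 241 to 299 CPM in AET, against 216 to 242 CPM in SED, with Kdr called higher and Cldn5 called lower. Of the 10 fast-fiber markers, 7 had a lower estimate and 3 a higher one, and only Acta1 was called, lower. No gene of these lists was at 0 in any library. Their part in the result was not tested.

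The second comparison sets training with metformin against no training. Of the 78 genes 1 passed the test, Mrpl16, which was lower in AET_MET. The family's share of calls was 1.28%, against 4.59% of all genes, of which 2.42% were lower and 2.17% higher. No member was called higher by edgeR or DESeq2. At an unadjusted p under 0.05, 0 of 78 members were higher and 18 lower. Of all 13944 genes tested, 1429 were higher and 1450 lower at that threshold (20.6% in either direction). Estimates were lower for 72 of 78 genes (92.3%, against 49.5% of all genes), with a median of -0.13 on the log2 scale (0.00 over all genes). The groups did not overlap for 35 genes lower in AET_MET (44.9%, against 13.4% of all genes). The single gene without overlap in the other direction was Mrpl36 (1.28%, against 13.4%). These 35 genes are measured in the same 6 libraries and are not independent of each other. The 95% interval lay within ±0.5 for 66 of 78 members, and no estimate passed ±0.5, against 14.1% of all genes. No nuclear-encoded complex I subunit or cytosolic ribosomal protein passed ±0.5 either. The median SE was 0.104 for members and 0.146 over all genes.

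**Figure D3:**
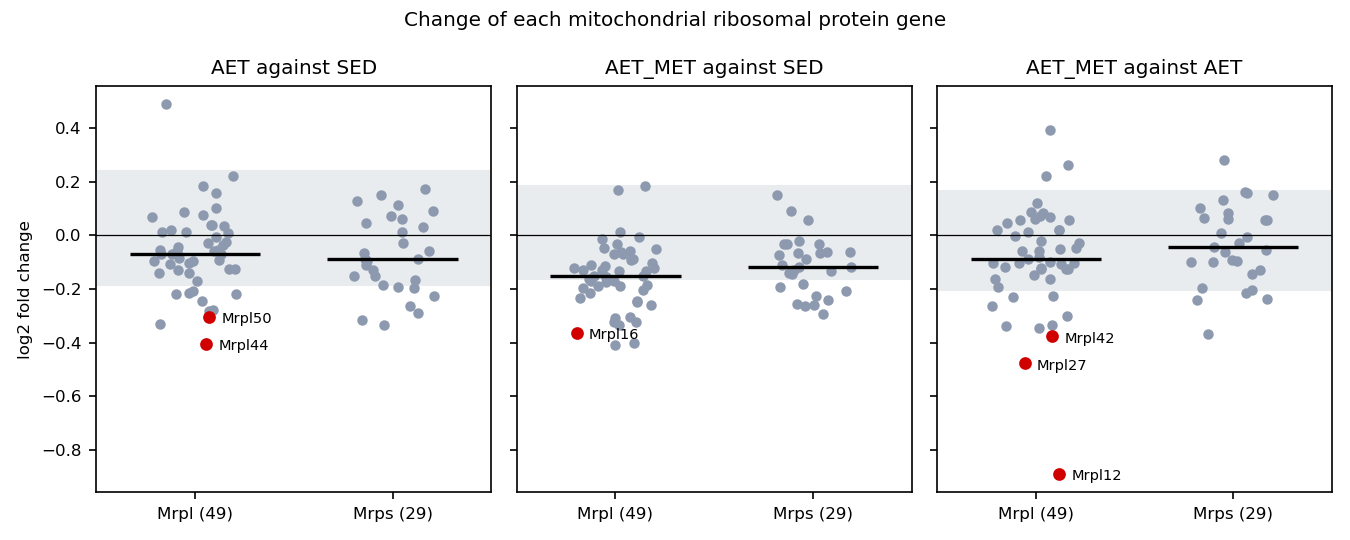
Log2 fold change of each gene in the 3 comparisons, with Mrpl and Mrps genes apart; red points with names are genes called by edgeR at an adjusted p under 0.05, black lines are medians, and the grey band is the interquartile range over all 13944 genes tested. In AET_MET against SED, 72 of 78 points lie below 0, while the calls are few in every panel.

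The scaling matters for this shift. With library sizes alone the median over all genes moved to 0.10 in this comparison, the members' median to -0.032, the number of lower estimates to 51, and no member was called. Relative to all genes, the median of the members was -0.14 under both scalings. The split of all called genes was 303 higher and 337 lower with TMM, and 684 higher and 176 lower with library sizes alone.

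Mrpl16 encodes a bacterial-type protein that lies close to the tRNA binding sites of the large subunit, at chr19:11770391-11774960 on the plus strand. Its level was 18.3, 20.2 and 18.6 CPM in AET_MET, against 24.0, 24.0 and 25.5 CPM in SED. All AET_MET libraries lay below all SED libraries. This gave a log2 fold change of -0.36 ± 0.09 (edgeR adjusted p 0.0371). AET libraries, at 21.0, 20.2 and 24.1 CPM, spread across the gap. The call was lost with library sizes alone, without any 1 of the SED libraries, and without AET_MET replicate 1 or replicate 3, where the adjusted p reached 0.136.

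The lowest estimates in the large subunit belonged to Mrpl27 and Mrpl12, and neither was called. Mrpl27 passed with no filter, with the 5 CPM filter, with the 2 groups alone and without AET replicate 1, and Mrpl12 without SED replicate 1. Mrpl27, whose bacterial homologue reaches toward the peptidyl transferase centre, had 9.00, 9.45 and 10.3 CPM in AET_MET, against 13.5, 12.1 and 12.7 CPM in SED. The groups did not overlap, and the log2 fold change was -0.41 ± 0.11 (edgeR adjusted p 0.0536). Mrpl12 had 20.5, 21.2 and 17.4 CPM in AET_MET, against 20.1, 26.2 and 31.6 CPM in SED, which overlap (log2 -0.40 ± 0.16, edgeR adjusted p 0.202). Mrpl58, a peptidyl-tRNA hydrolase that releases chains from stalled mitoribosomes and is also a structural subunit, had 9.81, 10.7 and 11.2 CPM in AET_MET, against 13.6, 13.0 and 13.1 CPM in SED. It did not overlap and was not called (log2 -0.32 ± 0.10, edgeR adjusted p 0.0874). Mrpl45, which anchors the ribosome at the inner membrane, had 30.7, 29.4 and 26.8 CPM in AET_MET, against 32.3, 33.8 and 31.6 CPM in SED (log2 -0.17 ± 0.10, edgeR adjusted p 0.382).

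The highest large-subunit estimates were those of Mrpl52 and Mrpl36. Mrpl52 had 8.70, 9.91 and 10.4 CPM in AET_MET, against 9.12, 7.75 and 8.70 CPM in SED (log2 0.18 ± 0.11, edgeR adjusted p 0.386). Mrpl36, a small bacterial-type protein, had 11.6, 12.1 and 12.5 CPM in AET_MET, against 11.2, 11.5 and 9.38 CPM in SED (log2 0.17 ± 0.16, edgeR adjusted p 0.586). It overlaps the complex I gene Ndufs6 on the other strand, which averaged 49.7 CPM in AET_MET and 56.1 CPM in SED.

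No Mrps gene was called by edgeR or DESeq2 in this comparison, and 6 were lower at an unadjusted p under 0.05. Mrps9 had the lowest estimate, with 11.8, 13.3 and 10.5 CPM in AET_MET, against 15.4, 12.1 and 16.1 CPM in SED (log2 -0.29 ± 0.13, edgeR adjusted p 0.230). Mrps18b had 22.4, 21.4 and 24.7 CPM in AET_MET, against 26.8, 28.4 and 27.2 CPM in SED, without overlap (log2 -0.26 ± 0.08, edgeR adjusted p 0.0860). Mrps18b belongs to a trio of paralogues related to the same bacterial protein, of which Mrps18a sits in the large subunit and Mrps18c is the bacterial-type member. Mrps18a had 25.1, 25.3 and 24.4 CPM in AET_MET, against 27.1, 30.8 and 31.6 CPM in SED (log2 -0.26 ± 0.10, edgeR adjusted p 0.143). Mrps18c averaged 8.70 ± 1.25 CPM in AET_MET and 9.12 ± 0.254 CPM in SED (SD, n = 3 each), and the groups overlapped (log2 -0.06 ± 0.12). Estimates were highest for Mrps16 (log2 0.15 ± 0.13) and Mrps24 (0.09 ± 0.13), with edgeR adjusted p of 0.550 and 0.748. Mrps24 overlaps Urgcp on the same strand, at 44.3 CPM in AET_MET and 46.5 CPM in SED, so its count is uncertain. Mrps12, which carries part of the decoding centre, had 12.8, 13.2 and 15.9 CPM in AET_MET, against 13.7, 13.0 and 13.6 CPM in SED (log2 0.06 ± 0.11). Mrps36, of the 2-oxoglutarate dehydrogenase complex, had 18.6, 18.6 and 17.8 CPM in AET_MET, against 21.9, 20.2 and 21.3 CPM in SED (log2 -0.21 ± 0.12, edgeR adjusted p 0.366).

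By structure, the median change was -0.13 for large-subunit bacterial homologues, -0.17 for mitochondria-specific large-subunit proteins, -0.06 for small-subunit bacterial homologues and -0.12 for mitochondria-specific small-subunit proteins. Lower estimates made up 27 of 29, 21 of 22, 13 of 16 and 10 of 10 genes in the same classes. Without TMM scaling the 4 medians were -0.031, -0.07, 0.035 and -0.015 in the same order, so the third changed sign, beside the move to 0.10 over all genes given above. Beside this shift, slow-fiber markers were lower in AET_MET, at a summed 89.1 to 724 CPM, against 837 to 1013 CPM in SED, with 8 of 8 genes lower in estimate. None of the 8 was called by edgeR or had an unadjusted p under 0.05, and their median SE was 0.86. Fibroblast and tendon markers were lower too, at 608 to 731 CPM in AET_MET, against 1008 to 1214 CPM in SED, with 7 of 7 genes lower in estimate and Col1a1 called. Endothelial markers summed to 187 to 227 CPM in AET_MET, against 216 to 242 CPM in SED, and the groups overlapped. In that list 5 of 7 genes were lower in estimate and 2 higher. Cldn5 was called lower, while Kdr had a higher estimate (log2 0.41) and was not called by edgeR. None of these markers was at 0 in any library. Their part in the result was not tested.

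The third comparison sets training with metformin against training alone. Here 3 large-subunit genes fell with metformin, Mrpl12, Mrpl27 and Mrpl42, and the family's share of calls (3.85%) was near that of all genes (3.43%, of which 1.77% lower and 1.66% higher). No member was called higher by edgeR, and DESeq2 called 1, Mrpl44. At an unadjusted p under 0.05, 1 of 78 members was higher and 15 lower. Of all 13944 genes tested, 1501 were higher and 1483 lower at that threshold (21.4% in either direction). Estimates were lower in AET_MET for 50 of 78 genes (64.1%, against 49.9% of all genes), with a median of -0.06 (0.00 over all genes). The groups did not overlap for 17 genes lower in AET_MET (21.8%, against 13.2%) and 4 higher (5.13%, against 14.7%). With library sizes alone the median over all genes was 0.09 and the members' median 0.025, and 1 member was called in each direction. The split of all called genes was 231 higher and 247 lower with TMM, and 611 and 156 with library sizes alone.

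Mrpl12 had the largest change of any member in any comparison. It lies at chr11:120484613-120489065 on the plus strand. Its level was 20.5, 21.2 and 17.4 CPM in AET_MET, against 34.6, 32.2 and 42.5 CPM in AET. The groups were far apart, with the lowest AET library above the highest AET_MET library. The log2 fold change was -0.89 ± 0.16, with an adjusted p of 0.0247 by edgeR, and it was the only member with an estimate beyond ±0.5, against 12.5% of all genes. A gene overlapping it on the other strand, Gm16755, was not analysed here. Of 6 listed proteins of the ribosomal stalks and their base it was the one called. Mrpl10, the anchor of the stalk protein, spanned 17.3 to 18.6 CPM in AET_MET, which overlapped the AET libraries (log2 0.08 ± 0.09, edgeR adjusted p 0.630). Mrpl11, at the stalk base, averaged 17.9 ± 0.968 CPM in AET_MET and 17.3 ± 1.03 CPM in AET (SD, n = 3 each).

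Mrpl27, at chr11:94653767-94660089 on the plus strand, had 9.00, 9.45 and 10.3 CPM in AET_MET, against 11.5, 14.5 and 14.0 CPM in AET. The groups did not overlap, and the fall was called (log2 -0.48 ± 0.11, edgeR adjusted p 0.0354). Mrpl27 overlaps Eme1 on the other strand, which averaged 0.0151 CPM over all libraries. Its promoter carries the ETS motif shown above.

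Mrpl42 encodes a mitochondria-specific protein that has been assigned to the large subunit, at chr10:95480805-95501940 on the minus strand. Its level was 84.9, 94.1 and 95.3 CPM in AET_MET, against 120.8, 109.7 and 125.9 CPM in AET. All AET_MET libraries were below all AET libraries, and SED libraries, at 97.4, 98.7 and 109.8 CPM, reached the lowest AET library. The log2 fold change was -0.38 ± 0.08 (edgeR adjusted p 0.0297). The YY1 motif of its promoter begins after the transcription start.

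**Figure D4:**
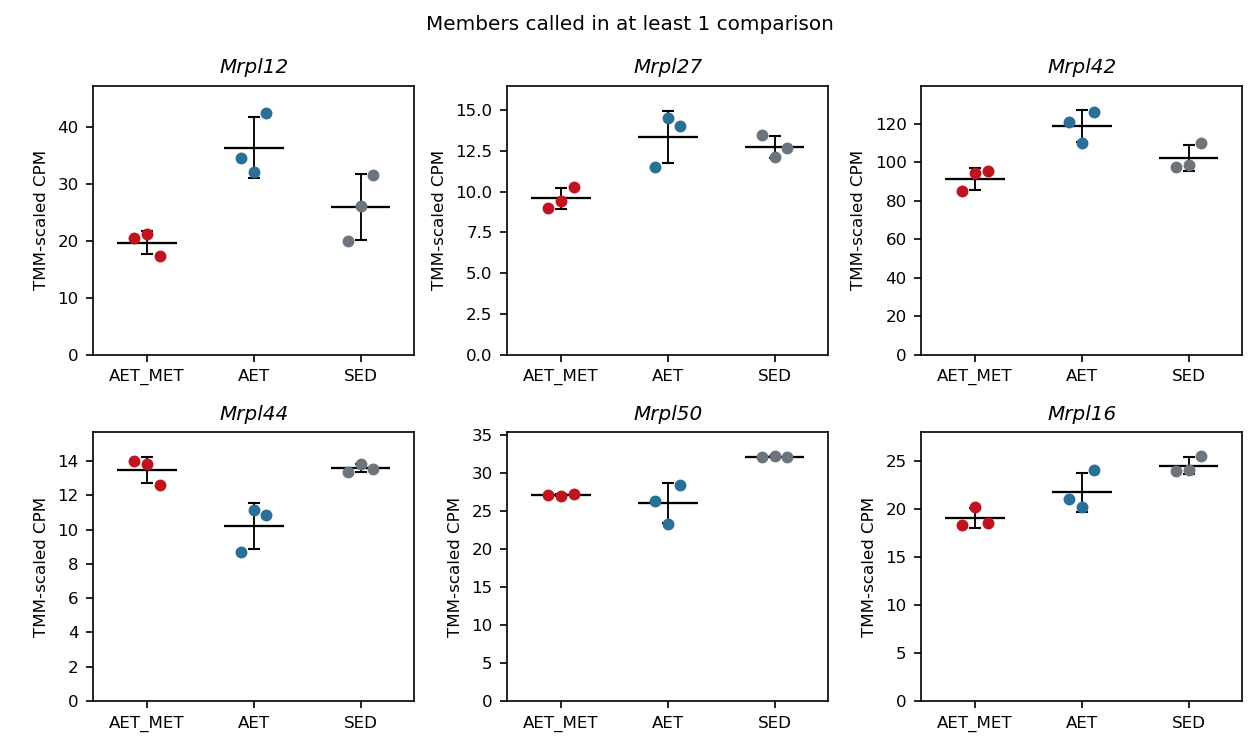
TMM-scaled CPM in each library of the 6 members called in at least 1 comparison; points are libraries, lines group means and bars SD (n = 3), with y axes from 0. Mrpl12, Mrpl27 and Mrpl42 are lower in AET_MET than in AET without overlap, Mrpl44 and Mrpl50 lower in AET than in SED, and Mrpl16 lower in AET_MET than in SED.

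All 3 calls were lost without any 1 of the AET_MET libraries and without AET replicate 3, with a largest adjusted p, by edgeR, of 0.109 for Mrpl12, 0.129 for Mrpl27 and 0.120 for Mrpl42. Mrpl12 and Mrpl42 were also lost without AET replicate 1, and Mrpl27 without AET replicate 2. With library sizes alone, Mrpl12 remained called and the other two did not. Among all genes, calls in this comparison numbered 23 to 151 without an AET_MET library and 34 without AET replicate 3, so these losses were not confined to the family.

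Mrpl44 went the other way, with 14.0, 13.8 and 12.6 CPM in AET_MET, against 8.69, 11.1 and 10.9 CPM in AET, without overlap. The estimate of 0.39 ± 0.11 missed the threshold (edgeR adjusted p 0.0616), and it passed under DESeq2 and with library sizes alone. Mrpl36 had the next highest large-subunit estimate (log2 0.26 ± 0.16, edgeR adjusted p 0.351).

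Among the Mrps genes, none was called by edgeR or DESeq2, and 6 were lower at an unadjusted p under 0.05. The lowest estimates were those of Mrps35 and Mrps10. Mrps35, a mitochondria-specific protein, had 9.13, 9.03 and 8.71 CPM in AET_MET, against 10.9, 11.4 and 12.2 CPM in AET (log2 -0.37 ± 0.11, edgeR adjusted p 0.0705). It was called when genes under 5 CPM were left out. Mrps10 had 9.31, 10.2 and 10.3 CPM in AET_MET, against 12.1, 10.3 and 12.9 CPM in AET (log2 -0.24 ± 0.11, edgeR adjusted p 0.211). The highest estimates were those of Mrps6 (log2 0.28 ± 0.15) and Mrps2 (0.16 ± 0.11), with edgeR adjusted p of 0.294 and 0.422. For both, every AET_MET library lay above every AET library. Mrps6 shares its locus and strand with Slc5a3, an inositol transporter gene at 8.02 CPM in AET_MET and 12.6 CPM in AET, so its count is uncertain.

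By structure, medians in this comparison were -0.05 for large-subunit bacterial homologues, -0.10 for mitochondria-specific large-subunit proteins, 0.06 for small-subunit bacterial homologues and -0.10 for mitochondria-specific small-subunit proteins. Lower estimates made up 17 of 29, 17 of 22, 6 of 16 and 9 of 10 genes. Without TMM scaling the same 4 medians were 0.039, -0.019, 0.14 and -0.010, against 0.09 over all genes. No test of a difference between these classes was run. Without AET replicate 1 the family's median was -0.13, and without AET replicate 3 it was -0.0068. Beside these differences, Schwann cell markers summed to 42.3 to 90.3 CPM in AET_MET, against 99.4 to 162 CPM in AET, with 6 of 6 genes lower in estimate, a median of -1.04 and none called by edgeR, although all 6 had an unadjusted p under 0.05. Endothelial markers summed to 187 to 227 CPM in AET_MET, against 241 to 299 CPM in AET, with 6 of 7 lower and Kdr called. Smooth muscle and pericyte markers summed to 499 to 596 CPM in AET_MET, against 599.7 to 702 CPM in AET, with 5 of 6 lower in estimate and none called by edgeR. Macrophage markers summed to 91.2 to 115 CPM in AET_MET, against 103 to 152 CPM in AET, with 7 of 7 lower in estimate. Slow-fiber markers summed to 89.1 to 724 CPM in AET_MET, against 339 to 1280.2 CPM in AET, with 8 of 8 lower in estimate. No macrophage or slow-fiber marker was called by edgeR or had an unadjusted p under 0.05 in this comparison. None of the markers of these lists was at 0 in any library, and their part in the result was not tested.

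The rest of the mitochondrial translation apparatus was counted in gene lists written with earlier results of these data known. Of 5 mitoribosome subunits without an Mrp name, 2 fell in AET_MET relative to SED, where 4.59% of all genes were called and 2.42% called lower. Ptcd3, an RNA-binding small-subunit protein, had 43.4, 42.2 and 41.2 CPM in AET_MET, against 55.4, 52.8 and 53.2 CPM in SED (log2 -0.35 ± 0.08, edgeR adjusted p 0.0296). Gadd45gip1, a large-subunit protein also known as Crif1, had 13.3, 15.2 and 14.2 CPM in AET_MET, against 19.5, 18.6 and 19.0 CPM in SED (log2 -0.41 ± 0.11, edgeR adjusted p 0.0471). Neither gene's groups overlapped.

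Of 27 genes listed as mitoribosome assembly factors, 4 fell in AET relative to SED (14.8%, against 6.45% of all genes called lower and 12.3% called either way), with a median of -0.17. The count was 2 with upper-quartile scaling and 1 with library sizes alone. Ddx28, an RNA helicase of large-subunit assembly, had 4.39, 6.09 and 5.43 CPM in AET, against 10.3, 10.8 and 8.74 CPM in SED (log2 -0.90 ± 0.14, edgeR adjusted p 0.00170). Malsu1, which keeps an assembling large subunit from joining the small one, also fell (log2 -0.32 ± 0.10, edgeR adjusted p 0.0465). Mief1 fell by 0.32 ± 0.08 on the log2 scale (edgeR adjusted p 0.0183); its locus encodes a fission receptor and a microprotein found on assembling mitoribosomes. The remaining gene, Mcat (log2 -0.41 ± 0.12, edgeR adjusted p 0.0419), is a mitochondrial fatty acid synthesis enzyme. The calls of Malsu1 and Mcat each held in 4 of 9 other settings and were lost under DESeq2, among others. In AET_MET relative to AET, 2 of the 27 rose (7.41%, against 1.66% of all genes called higher and 3.43% called either way). They were Ddx28 (log2 0.59 ± 0.14, edgeR adjusted p 0.0403) and Mief1 (0.36 ± 0.08, edgeR adjusted p 0.0294).

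Among 16 translation factors, Mtrf1l, a release factor, was the only one called in AET relative to SED (6.25%, against 12.3% of all genes), where it rose (log2 0.54 ± 0.15, edgeR adjusted p 0.0371). The call held in 8 of 9 other settings and was lost under DESeq2. In AET_MET relative to SED 3 of the 16 fell (18.8%, against 2.42% of all genes called lower and 4.59% called either way). They were the elongation factors Tufm (log2 -0.36 ± 0.09) and Gfm1 (-0.29 ± 0.07) and the cytochrome oxidase translational activator Taco1 (-0.35 ± 0.09), with edgeR adjusted p of 0.0425, 0.0373 and 0.0449. Tufm had 52.4, 53.4 and 47.6 CPM in AET_MET, against 60.6, 65.9 and 77.3 CPM in AET, and this fall was called too (log2 -0.41 ± 0.09, edgeR adjusted p 0.0310). Of 20 genes for mitochondrial aminoacyl-tRNA synthesis, Iars2, the isoleucyl-tRNA synthetase, fell in AET relative to SED (log2 -0.31 ± 0.07, edgeR adjusted p 0.00996) and Gatb, an amidotransferase subunit that completes glutaminyl-tRNA, fell in AET_MET relative to SED (log2 -0.50 ± 0.10, edgeR adjusted p 0.0186). Each was the 1 call of that list in its comparison (5%, against 12.3% and 4.59% of all genes). Of 20 tested genes for mitochondrial transcription and RNA processing, 3 fell in AET relative to SED (15%, against 6.45% of all genes called lower and 12.3% called either way). They were the mitochondrial RNA polymerase Polrmt (log2 -0.29 ± 0.08) and the tRNA-processing genes Elac2 (-0.30 ± 0.09) and Trmt10c (-0.37 ± 0.10). Their edgeR adjusted p was 0.0379, 0.0375 and 0.0344. All 3 calls were lost with library sizes alone and when only the 2 groups were fitted, and those of Polrmt and Elac2 also with upper-quartile scaling and with no filter.

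The rRNAs of the mitoribosome come from mitochondrial DNA. The small-subunit rRNA mt-Rnr1 stood at 5660.1, 5037 and 4538 CPM in AET_MET, against 11741, 5966 and 9072 CPM in AET, and at 4914, 5693 and 7552 CPM in SED. AET replicate 1, the library with the lowest values of many Mrp genes, had the highest value. The difference between AET_MET and AET was not called (log2 -0.81 ± 0.25, edgeR adjusted p 0.114; DESeq2 called it), nor was that of the large-subunit rRNA mt-Rnr2 (log2 -0.43 ± 0.16, edgeR adjusted p 0.142). Of the 13 protein-coding mitochondrial genes, the products of the mitoribosome, mt-Nd6 fell in AET_MET, with 70.2, 69.6 and 60.6 CPM, against 272, 134 and 261 CPM in AET (log2 -1.73 ± 0.32, edgeR adjusted p 0.0386). It was the 1 edgeR call among the 13 (7.69%, against 1.77% of all genes called lower and 3.43% called either way). mt-Nd6 lies on the other strand of the mitochondrial genome from most genes, so its reads are uncertain without a strand setting. In the same comparison DESeq2 called 3 of the 13 higher in AET_MET, mt-Atp6, mt-Co2 and mt-Nd3. They were not called by edgeR (log2 0.58 ± 0.19, 1.75 ± 0.48 and 1.41 ± 0.44, edgeR adjusted p 0.118, 0.107 and 0.130). Of 9027 genes tested, DESeq2 called 501 higher and 397 lower. In AET relative to SED, DESeq2 called mt-Nd6 higher and mt-Co2 and mt-Nd3 lower, and edgeR called none of the 13. mt-Co2 stood at 156, 54.1 and 61.2 CPM in AET_MET, against 18.6, 38.0 and 23.7 CPM in AET, without overlap.

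**Figure D5:**
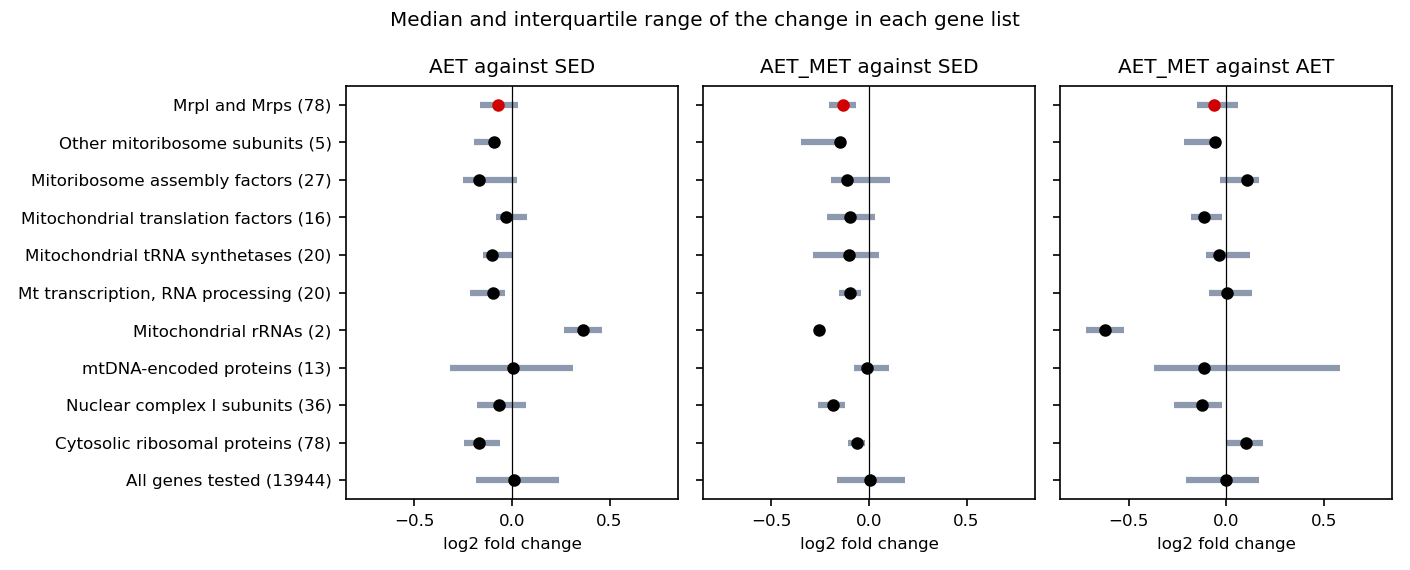
Median (point) and interquartile range (bar) of the log2 fold change in each gene list, for the 3 comparisons, with the number of tested genes in brackets; red marks the Mrpl and Mrps genes. The members' median is -0.07, -0.13 and -0.06 in the 3 panels, near 0 for all genes tested, and that of the cytosolic ribosomal proteins is -0.17, -0.06 and 0.10.

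Cytosolic ribosomal proteins, which translate all nuclear-encoded mRNAs, also numbered 78. In AET relative to SED 11 of them were called lower (14.1%, against 6.45% of all genes called lower and 12.3% called either way). The median of the 78 was -0.17, and 71 had a lower estimate (91.0%, against 48.6% of all genes). The number called lower was 4 under upper-quartile scaling, 1 with library sizes alone and 20 by DESeq2. In AET_MET relative to AET 5 were called higher (6.41%, against 1.66% of all genes called higher and 3.43% called either way). The median of the 78 was 0.10, and DESeq2 called 9 higher and 3 lower. In AET_MET relative to SED their median was -0.06, with none called by edgeR, 4 lower at an unadjusted p under 0.05 and 1 called lower by DESeq2; that median turned to 0.040 with library sizes alone. Nuclear-encoded complex I subunits, a further set of proteins that assemble with mitochondrial products, had medians of -0.07 in AET relative to SED, -0.18 in AET_MET relative to SED and -0.13 in AET_MET relative to AET. Of 36 complex I genes, 35 had a lower estimate in AET_MET than in SED (97.2%, against 49.5% of all genes). The test called 1 of the 36 lower (2.78%, against 2.42% of all genes called lower and 4.59% called either way). With upper-quartile scaling or library sizes alone none was called, and DESeq2 called 4. In AET_MET relative to AET 4 of the 36 fell (11.1%, against 1.77% of all genes called lower and 3.43% called either way), and DESeq2 called 8 lower and 1 higher. The differences between the lists were not tested.

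Of 9 transcription factors and coactivators known to act on such promoters, 4 were called in AET relative to SED (44.4%, against 12.3% of all genes), of which 2 coactivators rose. Ppargc1a, the exercise-responsive coactivator of mitochondrial genes, had 44.9, 46.8 and 50.8 CPM in AET, against 29.6, 27.7 and 37.9 CPM in SED (log2 0.58 ± 0.13, edgeR adjusted p 0.0126). Its relative Ppargc1b had 8.45, 7.85 and 10.5 CPM in AET, against 4.25, 4.49 and 5.03 CPM in SED (log2 0.96 ± 0.16, edgeR adjusted p 0.00319). The related coactivator gene Pprc1 (log2 -0.46 ± 0.14, edgeR adjusted p 0.0445) and Myc (-0.84 ± 0.18, edgeR adjusted p 0.0104) fell. The Pprc1 call held in 3 of 9 other settings and was lost under DESeq2 and under upper-quartile scaling, among others. In AET_MET relative to SED, Ppargc1b rose (log2 0.67 ± 0.17, edgeR adjusted p 0.0397) and Myc fell (-0.70 ± 0.18, edgeR adjusted p 0.0449). This Myc call held in 2 of 8 other settings and was lost under DESeq2 and upper-quartile scaling, among others. That of Ppargc1b held in 8 of 9. The factors whose motifs were searched had small estimates in AET against SED: -0.07 ± 0.11 for Nrf1, -0.02 ± 0.07 for Gabpa and -0.07 ± 0.07 for Yy1 on the log2 scale.

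Of the 25 calls named in these lists outside complex I and the cytosolic ribosome, 4 held in all 9 fits that left out 1 library. They were Ddx28, Iars2, Ppargc1b and Myc, all in AET relative to SED. Each of the others was lost in at least 2 of the 9 fits. The 6 falls in AET_MET relative to SED among subunits, translation factors and tRNA synthesis genes were also lost with library sizes alone.

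Counting limits apply to part of the family. Of the 78 genes, 42 overlap another annotated gene, 36 of them on the other strand. Mrpl46 and Mrps11, a gene of each subunit, overlap on opposite strands. RSEM divides reads between near-identical copies, and the processed pseudogene Mrpl23-ps1 held 9.96 CPM on average, against 20.2, 23.6 and 23.0 CPM for Mrpl23 itself in AET_MET, AET and SED, so the level of Mrpl23 is uncertain.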

How the data were processed

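Per the labels' protocols, RNA was extracted with an RNeasy kit and libraries were made with the SMARTER mRNA-Seq kit. The deposited table holds the authors' expected counts per gene, estimates that may hold fractions of a read, for 9 libraries; between 4.85% and 5.53% of values were not whole. Per the submitters' processing notes, the tools named are STAR 2.5.3a, RSEM 1.3.0 and edgeR 3.34.0 and the build is GRCm38, with no roles stated. For the annotation release, the filters and the strand setting, nothing is given in the sources used here.

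Identifiers were matched to GENCODE M21 (GRCm38): 52083 of 55416 had a symbol. Expected counts were rounded to whole numbers and fitted in R 4.3.3 with edgeR 4.0.16 (limma 3.58.1; TMM, filterByExpr, robust quasi-likelihood test, all 9 libraries, group as the only term), with Benjamini-Hochberg adjustment over 13944 genes and calls at 0.05. DESeq2 1.42.0, other scalings, other filters, a fit of the 2 groups alone, a replicate term, and fits without each library were alternatives. The code was tested on simulated data. The low-count filter used group sizes, and a member had to pass it to be tested; all 78 did. Replicates correlated at 0.975 to 0.986 (log2 CPM) and differed by more than sampling noise, so none were merged. Each called value rests on the counts of 3 libraries a group, and the fitted SE is the error given.

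Lengths are unions of all GENCODE exons, and promoters are RefSeq's (GRCm38.p6). Named genes are all members called; in each comparison and subunit the pair with the highest and the pair with the lowest estimates; the highest and lowest per kb; a set panel of members; and called genes of the pathway lists, up to 4 a list. The rule for members uses gene names alone, although earlier results of these data were known when the members and lists were chosen.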

Additional observations from a re-analysis of the deposited data

How the results depend on the processing

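With 3 libraries a group, the number of members called moved with most choices, while directions mostly held. In AET against SED, where 2 members were called, 1 was called with library sizes alone and 1 when only the 2 groups were fitted, 4 with no filter, 4 with a filter of 5 CPM in 3 libraries, and 5 by DESeq2. In AET_MET against SED, where 1 was called, the count was 0 with library sizes alone, 3 with no filter, 3 with the 5 CPM filter, 3 with only the 2 groups, and 2 by DESeq2. Leaving out 1 library gave 0 to 2 calls in AET against SED, 0 to 5 in AET_MET against SED (5 without AET replicate 1) and 0 to 3 in AET_MET against AET. The median member change ranged from -0.11 to -0.0022, from -0.16 to -0.12 and from -0.13 to -0.0068 in the same 3 comparisons; a left-out library also leaves fewer samples. The median in AET_MET against SED was -0.11 with upper-quartile scaling and -0.032 with library sizes alone. In AET_MET against AET it turned to 0.025 with library sizes alone, where the median of all genes was 0.09. Same-numbered samples did not deviate together (correlations of -0.05 to 0.18), so the numbers do not pair the samples; with a replicate block 2, 1 and 2 members were called in the 3 comparisons, and Mrpl27 was the call lost. Among single named genes, over all comparisons and settings, 32 results passed the threshold under the alternative alone, 212 lost it and 2925 kept their side. The 95% interval of a member reached a median of 0.22 (log2) to either side of its estimate in each comparison. The lowest member did not have the widest interval: in AET against SED the SE was 0.15 for Mrps6, the lowest member at 3.84 CPM, and 0.16 for Mrpl12, at 27.4 CPM.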
